A study of Mus musculus with 16 samples.

Results

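The genes described here are 9 transcription factors of the enteroendocrine cell (EEC) lineage, Neurog3, Neurod1, Nkx2-2, Insm1, Isl1, Rfx6, Fev, Lmx1a and Etv1, taken by symbol from the 48440 genes listed. All 9 were found once in the table of each segment. They were measured by RNA-Seq in GFP+ cells sorted as intestinal stem cells (ISCs) from the duodenum, jejunum and ileum of female Lgr5-EGFP mice, whose stem cell gene Lgr5 drives the fluorescent protein. VSG and sham mice alike received a high-fat diet, for 16 weeks before surgery. Vertical sleeve gastrectomy (VSG), which removes most of the stomach, or a sham operation followed, and tissue was taken 4 weeks later, 15 minutes after the mice had received a liquid meal. Age is stated only for the study's mice in general, as 8 to 16 weeks. The duodenum and jejunum each gave 4 VSG and 2 sham libraries from the same 6 mice, and the ileum gave 2 VSG and 2 sham libraries, for 16 libraries from 7 mice. Libraries are named by surgery and replicate number, and a name such as VSG4 is the same mouse in every segment.

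EECs are the hormone-secreting cells of the gut epithelium and arise from ISCs through secretory progenitors. Neurog3, a basic helix-loop-helix (bHLH) factor, is switched on briefly in these progenitors and is required for the lineage. It is followed by Neurod1, Nkx2-2 and Insm1, and then by factors of maturing or subtype-restricted cells. Neurog3, Neurod1, Nkx2-2 and Insm1 are treated as early here, and Isl1, Rfx6, Fev, Lmx1a and Etv1 as late. The placing of Rfx6 varies, since it is active from progenitors onward. Neurog3, Insm1, Nkx2-2, Neurod1 and Isl1 are also in a heat map of progenitor genes that the study drew from these same samples, so their direction is not independent evidence.

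In the GENCODE M21 annotation of GRCm38, Neurog3 (ENSMUSG00000044312) lies on chromosome 10 at 62133090 to 62134763, plus strand, Neurod1 (ENSMUSG00000034701) on chromosome 2 at 79452521 to 79456751, minus strand, Nkx2-2 (ENSMUSG00000027434) on chromosome 2 at 147177546 to 147194243, minus strand, and Insm1 (ENSMUSG00000068154) on chromosome 2 at 146221921 to 146225020, plus strand. Of the late genes, Isl1 (ENSMUSG00000042258) lies on chromosome 13 at 116298281 to 116309689, minus strand, Rfx6 (ENSMUSG00000019900) on chromosome 10 at 51677756 to 51730432, plus strand, Fev (ENSMUSG00000055197) on chromosome 1 at 74881509 to 74885419, minus strand, Lmx1a (ENSMUSG00000026686) on chromosome 1 at 167689237 to 167848741, plus strand, and Etv1 (ENSMUSG00000004151) on chromosome 12 at 38779380 to 38870484, plus strand. A 273-base stretch of the 1674 exon bases of Neurog3 is also exon of the antisense gene Fam241b, which had 221 to 1558 normalized counts in these libraries. Whether counting used strand is not given in the sources used here, so reads in that stretch may belong to either gene. Neurod1 shares 201 of its 2729 exon bases with Cerkl on the same strand, and Cerkl was at 86.4 normalized counts or less in every library. Nkx2-2 shares 278 of 2875 exon bases with the antisense Nkx2-2os, whose row with identifier ENSMUSG00000086509 was listed at 0 throughout.

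bHLH proteins such as Neurog3 and Neurod1 bind the E-box, CANNTG. The 250 bases before the RefSeq start (GRCm38.p6) are shown for Neurog3 and Neurod1, the bHLH members themselves, and for Nkx2-2, the member with the clearest separation of VSG from sham libraries. Capitals mark each E-box.
Neurog3, chr10:62132840-62133089, plus strand: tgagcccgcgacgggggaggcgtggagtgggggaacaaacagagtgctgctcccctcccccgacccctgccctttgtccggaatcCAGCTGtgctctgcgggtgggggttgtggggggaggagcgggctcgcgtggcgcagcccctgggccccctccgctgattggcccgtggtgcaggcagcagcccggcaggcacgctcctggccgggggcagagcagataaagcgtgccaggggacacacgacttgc
Neurod1, chr2:79456637-79456886, minus strand: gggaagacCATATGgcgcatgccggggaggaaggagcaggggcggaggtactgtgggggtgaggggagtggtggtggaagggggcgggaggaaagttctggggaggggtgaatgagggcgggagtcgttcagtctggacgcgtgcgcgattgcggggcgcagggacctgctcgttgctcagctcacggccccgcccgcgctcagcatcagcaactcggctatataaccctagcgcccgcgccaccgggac
Nkx2-2, chr2:147186403-147186652, minus strand: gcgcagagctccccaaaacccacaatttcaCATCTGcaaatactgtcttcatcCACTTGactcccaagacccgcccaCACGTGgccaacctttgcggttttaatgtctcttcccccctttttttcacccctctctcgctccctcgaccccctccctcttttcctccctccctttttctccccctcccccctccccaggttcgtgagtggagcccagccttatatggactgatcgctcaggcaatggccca

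The Nkx2-2 window held 3 E-boxes, with CATCTG beginning 220 bases before the start, CACTTG beginning 197 bases before it and CACGTG beginning 173 bases before it. The Neurog3 window held CAGCTG at 165 bases and the Neurod1 window CATATG at 242 bases. The RefSeq table holds windows for 8 of the 9 genes, all but Insm1. These 8 genes have 9 windows. An E-box was present in 6 of the 9 windows, against 66.2% of all 32851 promoter windows of the same length. CAGATG, read on either strand and itself a form of the E-box, was present in 2 of the 9, of Nkx2-2 and Etv1, against 14.4% of all windows. These matches describe letters and are not binding sites, and the share with an E-box among the 9 windows was close to that of all promoters.

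Values are counts that the authors normalized within each segment, so levels were compared between VSG and sham within a segment and not between segments. Implied depth was 33.7 to 63.6 M reads in the duodenum, 22.2 to 57.8 M in the jejunum and 10.9 to 36.4 M in the ileum. Among genes with a mean above 50 normalized counts, 1.92% to 5.25% were listed at 0 in a duodenal library, 1.65% to 13.02% in a jejunal library and 6.24% to 19.1% in an ileal library, so a 0 may be a failed estimate. Some libraries stood apart or went against their labels. Sham1 was listed at 0 for Lgr5, the gene behind the sort, in both jejunum and ileum. VSG1 of the jejunum had 196951 normalized counts of Fabp6, a bile acid-binding protein of the ileal enterocyte, where the other jejunal libraries had 15.8 to 313 and the ileal libraries 29162 to 208801. In sorted cell pools, fewer EEC-committed cells and less RNA per cell cannot be told apart.

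The factors were detected in most duodenal and jejunal libraries and in few ileal ones. Of the 9 genes, 0 to 2 were listed at 0 in a duodenal library and 0 to 3 in a jejunal library. In the ileum, 1 was listed at 0 in VSG4, 6 in VSG5 and 7 in each sham library. Insm1, a zinc finger repressor, was the member found in all 16 libraries, with an implied 101 to 1065 reads, while Etv1 was listed at 0 in 9 libraries and Fev and Lmx1a in 6 each. Neurog3 rested on 149 to 984 implied reads in the 13 libraries that listed it. The ileum also held the library of least depth (sham2, 10.9 M reads), and the part of depth in the ileal zeros was not tested.

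Levels were compared between genes only per kb of exon. In the duodenum the median level was highest for Neurog3, at 422 normalized counts per kb, above 69.1% of 16799 genes tested there. Next came Insm1 at 158, Nkx2-2 at 127, Neurod1 at 88.1, Rfx6 at 79.1, Fev at 78.6, Isl1 at 56.7, Lmx1a at 27.3 and Etv1 at 0 per kb. The 4 early genes thus held the 4 highest median levels per kb, but Neurod1, the lowest of them, exceeded Rfx6 in 4 of 6 libraries only. The order was firm only in places, since Neurog3 exceeded Insm1 in 5 of 6 libraries and Isl1 exceeded Lmx1a in 5 of 6, but Insm1 exceeded Nkx2-2 in 4 of 6, and Rfx6, Fev and Isl1 did not differ beyond their spread. In the jejunum Neurog3 (214 per kb) and Insm1 (186 per kb) each led in 3 of 6 libraries, Neurod1 followed at 102, and Fev, Isl1, Rfx6 and Nkx2-2 lay between 69.3 and 82.6 per kb with no steady order. Lmx1a at 4.31 and Etv1 at 1.80 per kb were the lowest.

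**Figure D1:**
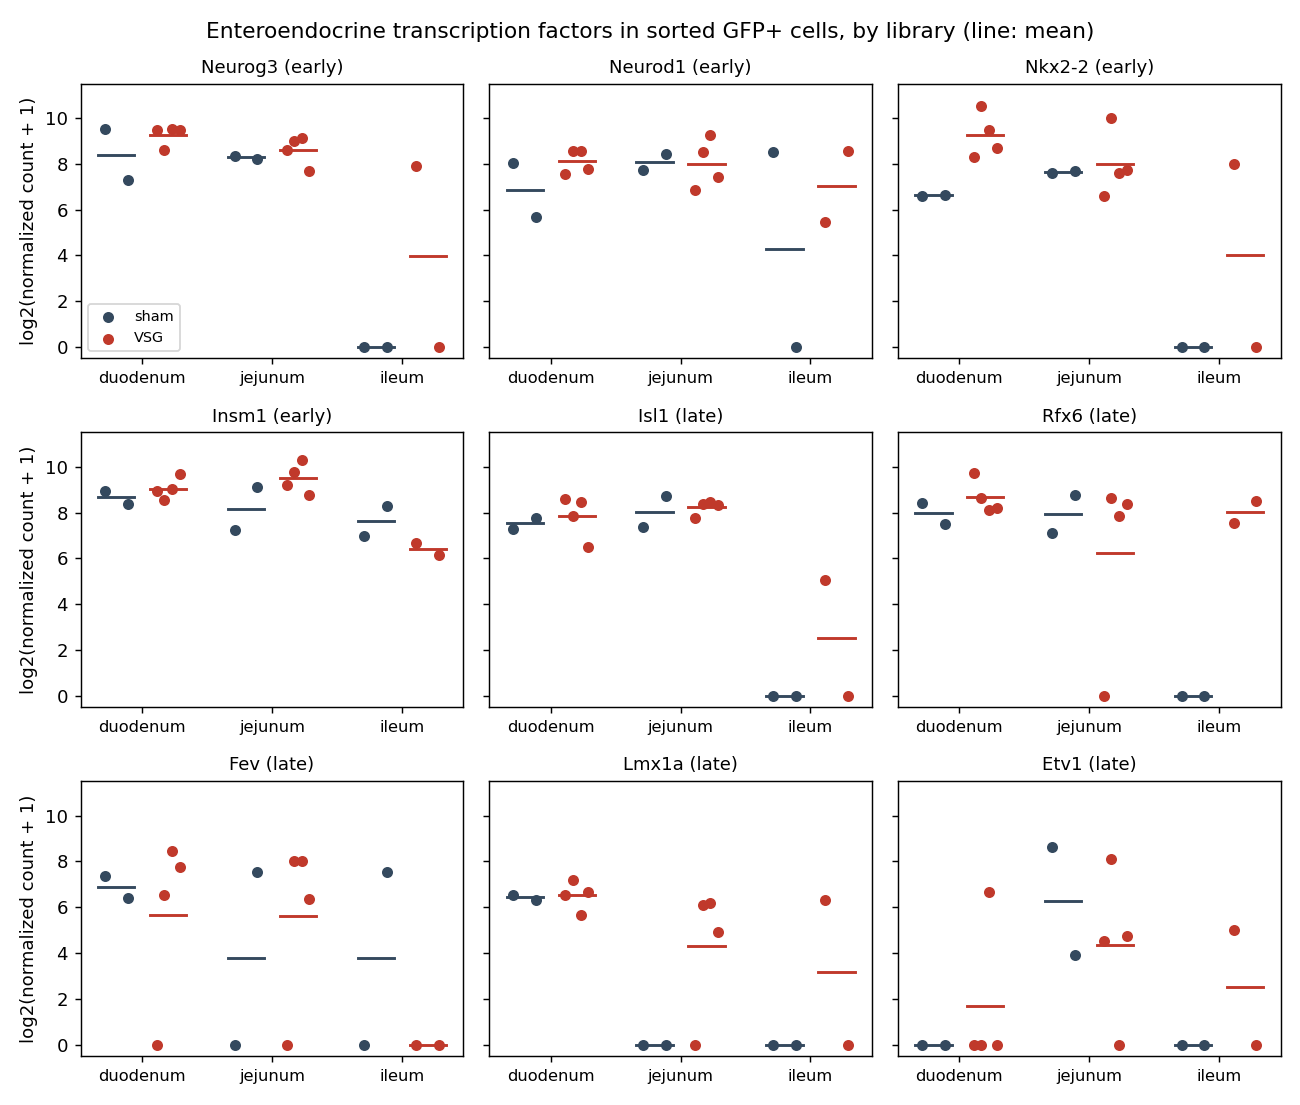
Expression of the 9 factors in each library, as log2(normalized count + 1) on the vertical axis, for sham (dark) and VSG (red) libraries of each segment, with a line at the group mean. Nkx2-2 in the duodenum is the panel in which all 4 VSG libraries (313 to 1482 normalized counts) lie clear of both sham libraries (96.7 and 99.7), and most ileal points lie at 0.

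The comparison of VSG with sham asks whether the surgery shifts ISCs toward the EEC fate. In the duodenum, Nkx2-2, a homeodomain factor that acts downstream of Neurog3 in EEC specification, was the member that separated the groups. VSG1 to VSG4 had 313, 1482, 719 and 417 normalized counts, and the sham libraries had 96.7 and 99.7. Nkx2-2 values were whole reads in only 1 of the 13 libraries that listed the gene, VSG4 of the ileum. Every duodenal and jejunal Nkx2-2 value thus included a fraction of a read. The groups did not overlap, the sham values being less than any VSG value, with means of 733 ± 528 (SD, n = 4) and 98.2 ± 2.08 (SD, n = 2). The fitted log2 fold change was 2.63 (SE 0.76, 95% confidence interval 0.91 to 4.34). It did not pass the threshold after adjustment over all genes (limma, adjusted p = 0.522). The two-sided exact permutation test gave p = 0.0667, its lower limit for groups of 4 and 2. Of 16867 duodenal genes, 6.44% had every VSG library above every sham library, and Nkx2-2 was the 1 member of 9 that did. No member had every VSG library below, as 8.01% of genes did.

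The bHLH factors were less clear. Duodenal Neurog3 had 714, 387, 725 and 700.3 normalized counts after VSG and 727 and 156 after sham surgery. Sham1 lay above all 4 VSG libraries and sham2 below them, so the groups overlapped (log2 fold change 0.86, 95% confidence interval -0.68 to 2.40, limma adjusted p = 0.880). The sign rested on sham2, and the fold change was -0.25 without it and 1.96 without sham1. Neurod1, a bHLH factor that Neurog3 activates, had 189, 378, 381 and 217 normalized counts after VSG against 263 and 49.3 after sham surgery. Its log2 fold change of 1.27 (95% confidence interval -0.82 to 3.36, limma adjusted p = 0.880) became 0.07 without sham2. Insm1 had 484, 376, 521 and 813 normalized counts after VSG against 498 and 328 after sham surgery, and its difference was small beside its spread (log2 fold change 0.38, SE 0.55).

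The late factors overlapped between the groups in the duodenum. Isl1, a LIM homeodomain factor of several hormone-producing EEC types, had 388, 230.0, 354 and 88.2 normalized counts after VSG and 155 and 219 after sham surgery, with the lowest and the highest value both after VSG. Rfx6, a winged-helix factor needed for EEC differentiation, had 838, 396, 278 and 295 after VSG against 339 and 181. VSG1 stood above the other VSG libraries, and sham1 lay within the VSG range (log2 fold change 0.71, SE 0.70). Fev, an ETS factor of serotonin-producing cells, was listed at 0 in VSG1 and had 91.6, 346 and 214 in the other VSG libraries, against 163 and 82.9 after sham surgery. Its fitted log2 fold change of -1.19 came from that 0 and was 0.70 without VSG1, and the ratio of the means was 1.33. Lmx1a, a LIM homeodomain factor also tied to serotonin-producing cells, had 92.9, 146, 50.1 and 100.5 after VSG and 92.4 and 78.6 after sham surgery, nearly the same levels (log2 fold change 0.09, 95% confidence interval -2.43 to 2.61). Etv1, an ETS factor with a large gene, was listed only in VSG3, at 101.

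Across the list, 0 of 9 members were called in the duodenum, where the call (p under 0.05, adjusted p under 0.2, absolute log2 fold change above 0.5, mean above 50) took 0.0237% of genes. Nkx2-2 was the 1 member with an unadjusted limma p under 0.05, as were 2.79% of genes in the higher direction. A higher fitted value was found for 7 of the 8 members with both groups above 0, against 50.7% of all genes, with a median log2 fold change of 0.54 against 0.0086 over all genes. The median was 1.06 over the 4 early genes and 0.20 over the 4 late genes with both groups above 0. Without sham2 it was 0.08 over the 8 members, with 5 of them higher. The summed level of the 9 members was 2845 to 3485 normalized counts in the VSG libraries, above sham1 (2335) and sham2 (1195). Without Nkx2-2 the sums overlapped, at 2003 to 2755 against 2238 and 1096.

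**Figure D2:**
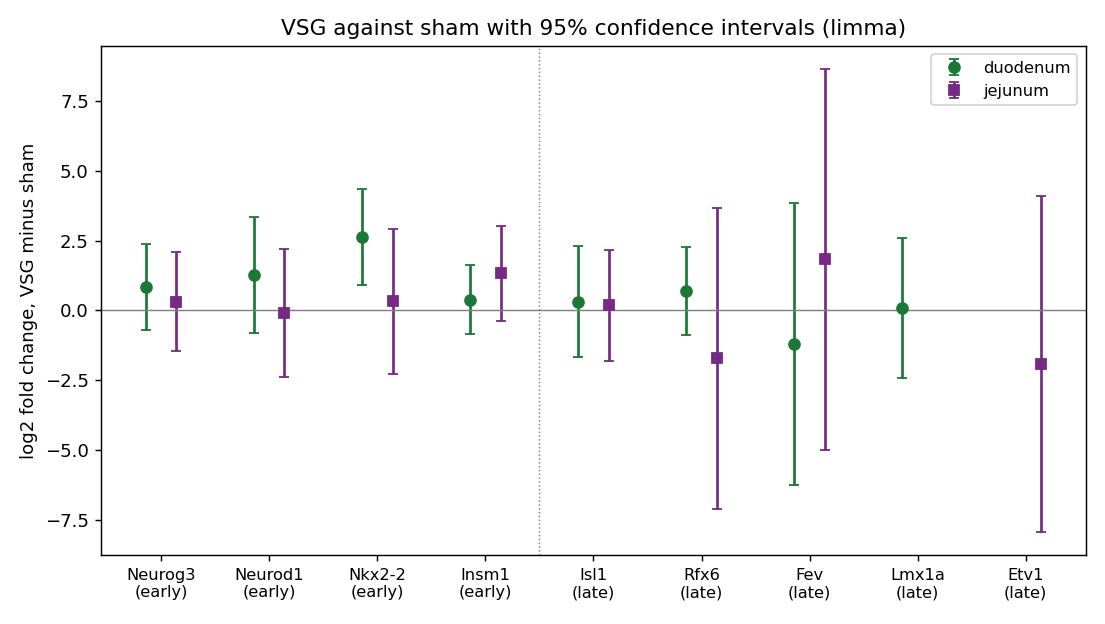
Fitted log2 fold change of VSG against sham for each factor in the duodenum (circles) and jejunum (squares), with 95% confidence intervals from limma; genes with a group listed at 0 throughout are left out, and the dotted line parts early from late factors. The interval of duodenal Nkx2-2 (0.91 to 4.34) lies above 0, and those of the other factors shown cross it.

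As the mean log2 value per library, the early factors were higher in every duodenal VSG library (8.57 to 9.15) than in the sham libraries (8.28 and 6.99), a difference of 1.28 with a within-group SD of 0.51. This separation rested on Nkx2-2. The mean of Neurog3, Neurod1 and Insm1 was 8.66, 8.57, 9.04 and 8.96 in VSG1 to VSG4 and 8.84 and 7.10 in the sham libraries, so that VSG1 and VSG2 lay below sham1. The difference of the 4 early factors was also 0.64 without sham2 and 1.93 without sham1. The late factors overlapped, at 4.97 to 7.48 after VSG and 5.92 and 5.60 after sham surgery. Early minus late was 3.59, 3.02, 1.67 and 3.08 in VSG1 to VSG4 and 2.36 and 1.39 in the sham libraries. These overlapped, and the difference of 0.97 was close to the within-group SD of 0.79, so a shift of early against late factors was not resolved from the spread.

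**Figure D3:**
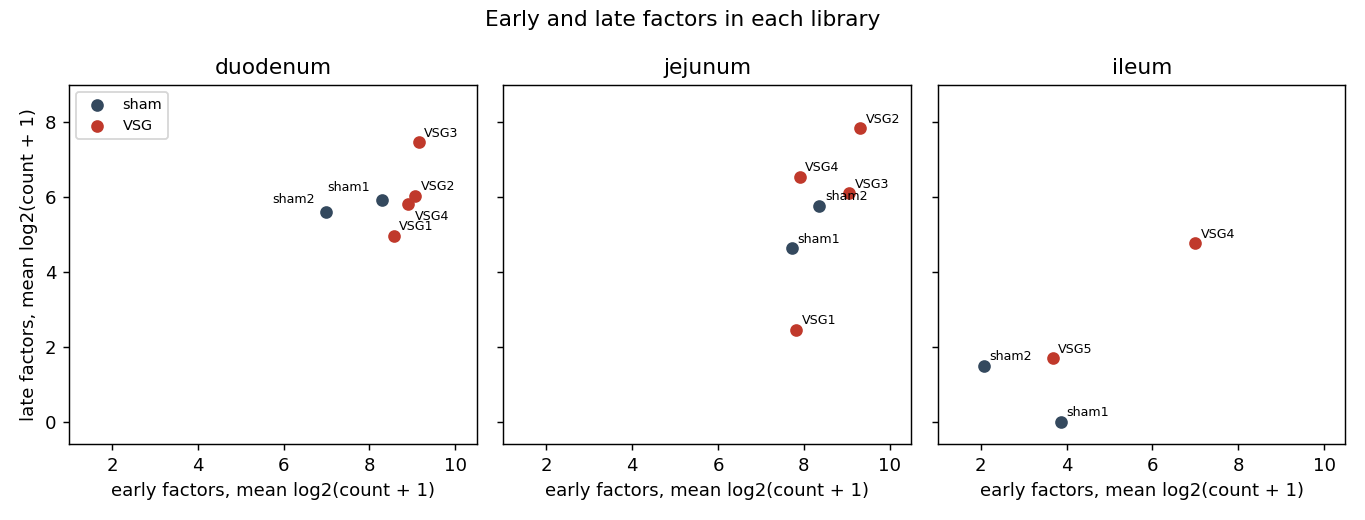
Mean log2(normalized count + 1) of the 4 early factors (horizontal) against that of the 5 late factors (vertical), 1 point per library. In the duodenum the VSG libraries lie to the right of both sham libraries (8.57 or more against 8.28 or less). They do not when Nkx2-2 is left out of the early mean (8.57 to 9.04 against 8.84 and 7.10). The jejunal and ileal groups overlap on the horizontal axis. On the vertical axis the ileal VSG libraries (4.778 and 1.702) lie above the sham libraries (0 and 1.504), and the duodenal and jejunal groups overlap.

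In the jejunum no member separated VSG from sham libraries, whereas 6.59% of genes had every VSG library above and 6.21% every VSG library below. The clearest was Insm1, with 594, 866, 1262 and 438 normalized counts after VSG and 149 and 556 after sham surgery. Sham2 lay within the VSG range and sham1 below it (790 ± 361, SD, n = 4, against 352 ± 288, SD, n = 2). The log2 fold change of 1.34 (SE 0.77, 95% confidence interval -0.36 to 3.04, limma adjusted p = 0.760) was 0.39 without sham1. Without sham2, where sham1 stands alone, it was 2.29 and passed the call (limma adjusted p = 0.164), in a fit that called 2710 genes.

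Jejunal Neurog3 had 390.4, 515, 558 and 204 normalized counts after VSG and 326 and 298 after sham surgery. Both sham libraries lay inside the VSG range (log2 fold change 0.32, 95% confidence interval -1.46 to 2.10). Neurod1 had 113, 362, 607 and 172 after VSG against 212 and 344, and its fold change of -0.08 turned to 0.15 when each library was scaled to the same total. Nkx2-2 had 96.8, 1017, 190 and 209.8 after VSG against 194 and 204. VSG2 alone stood well above the sham libraries there, as it was also the highest in the duodenum, and the log2 fold change of 0.33 became -0.34 without it.

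Of the late factors in the jejunum, Isl1 had 214, 333, 355 and 318 normalized counts after VSG and 166 and 416 after sham surgery, with sham libraries on both sides. Rfx6 was listed at 0 in VSG1 and had 395, 233 and 329 in the other VSG libraries, against 139 and 429 after sham surgery. Fev was listed at 0 in VSG1 and in sham1, with 262, 254, 82.1 and 185 in VSG2, VSG3, VSG4 and sham2. The fold changes of Rfx6 (-1.72) and Fev (1.83) each turned sign without 1 of these libraries, to 0.35 for Rfx6 without VSG1 and -1.94 for Fev without sham1. Lmx1a was listed at 0 in sham1, sham2 and VSG1, and had 67.5, 70.7 and 29.3 in the other VSG libraries. Etv1 spanned 0 to 275 after VSG and had 401 and 13.8 after sham surgery, with 3 of the 4 VSG libraries nearer to sham2.

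In the jejunum, too, 0 of 9 members were called by limma, where 0.0126% of 15857 genes were, and 0 had an unadjusted p under 0.05, as 3.63% of genes did in the higher and 2.4% in the lower direction. A higher fitted value was found for 5 of 8 members with both groups above 0, against 55% of genes, and their median log2 fold change was 0.25 against 0.11 over all genes. The early mean was 7.82, 9.32, 9.06 and 7.90 after VSG and 7.73 and 8.36 after sham surgery. Early minus late differed by -0.06 between VSG and sham with a within-group SD of 1.63. VSG1, the library with the ileal gene Fabp6, had the lowest late mean (2.46). Without VSG1 the early minus late difference was -0.91, and 7 of the 8 members had a higher fitted value.

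In the ileum, Insm1 had 101 and 69.3 normalized counts in VSG4 and VSG5 and 125 and 309 in sham1 and sham2. Both VSG libraries lay below both sham libraries, opposite to its direction in the jejunum (exact permutation p = 0.333, the smallest that 2 libraries against 2 can give), as for 11.6% of 13853 ileal genes. Rfx6 had 183 and 363 after VSG and was listed at 0 in both sham libraries. Rfx6 was the 1 member with every VSG library above every sham library, against 17% of genes. Neurod1 had 42.3 and 381 after VSG and 369 and 0 after sham surgery. Neurog3 (238), Nkx2-2 (255), Isl1 (32.0), Lmx1a (79.2) and Etv1 (30.8) were listed only in VSG4, and Fev only in sham2 (182). None of the 7 members tested was called by limma, as for all genes (0%), and Rfx6 was the 1 with an unadjusted p under 0.05, against 2.09% of genes in the higher direction. Of those 7, 5 were fitted higher, against 57% of all genes. Only 2 of the 7, Neurod1 and Insm1, had both groups above 0, and 1 of these was fitted higher. Chga, the granule protein chromogranin A, was listed in the same 4 libraries at 791 to 1263 normalized counts, so EEC transcripts were present where the factors were listed at 0. The early mean overlapped, at 7.002 and 3.678 in VSG4 and VSG5 and 3.876 and 2.069 in sham1 and sham2. The late mean did not, at 4.778 and 1.702 after VSG against 0 and 1.504 (difference 2.49, within-group SD 1.71). It came from Rfx6 alone in VSG5 and from Fev alone in sham2. Early minus late differed by -0.12 with a within-group SD of 1.66.

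The duodenum and jejunum of the same 6 mice were then averaged per mouse on the log2 scale. Insm1 was 9.07, 9.16, 9.67 and 9.22 in the VSG mice and 8.09 and 8.74 in the sham mice. All 4 VSG mice lay above both sham mice, by a mean of 0.86 (SE 0.47, 95% confidence interval -0.20 to 1.92, exact permutation p = 0.0667, the smallest possible, limma adjusted p = 0.621). The difference was 0.54 without sham1. Nkx2-2 was 7.45, 10.26, 8.53 and 8.21 in the VSG mice and 7.11 and 7.17 in the sham mice, also without overlap (difference 1.48, SE 0.84, exact permutation p = 0.2), and its difference was 0.93 without VSG2. Lmx1a did not overlap either, at 3.28 to 6.65 against 3.27 and 3.16, where VSG1 and sham1 were nearly equal and the jejunal sham values were listed at 0. These 3 of 9 members compare with 9.37% of 14718 genes whose VSG mice all lay above the sham mice, and 0 of 9 with 8.06% whose VSG mice all lay below. A higher fitted value was found for 7 of 9 members and 54.4% of genes. The call took 0 members and 0.0204% of genes, and 0 members had an unadjusted limma p under 0.05, which 5.1% of genes had in the higher and 3.65% in the lower direction. Neurog3 differed by 0.59 (95% confidence interval -0.67 to 1.84), with sham1 inside the VSG range.

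Whether the effect of VSG differed between the segments was tested on each mouse's jejunal minus duodenal log2 value, in which the constants of the separately normalized tables cancel between VSG and sham. Nkx2-2 gave -1.68, -0.54, -1.92 and -0.99 in the VSG mice and 1.00 and 1.03 in the sham mice. The VSG mice all lay below the sham mice, as for 4.99% of genes. The difference was -2.30 (SE 0.54, 95% confidence interval -3.63 to -0.96) and stayed between -2.54 and -2.08 when each mouse was left out. It did not pass adjustment over 14718 genes (limma adjusted p = 0.985, unadjusted p = 0.00605), and its exact permutation test gave p = 0.0667, again the lower limit. The other 8 members overlapped between VSG and sham mice, where 6.43% of genes had every VSG mouse above. Neurod1 differed by -1.35 (0.20 without sham2) and Insm1 by 0.96 (-0.29 without sham1). No member was called, nor was any gene (0%), and 1.59% of genes had an unadjusted p under 0.05 in the direction of Nkx2-2.

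**Figure D4:**
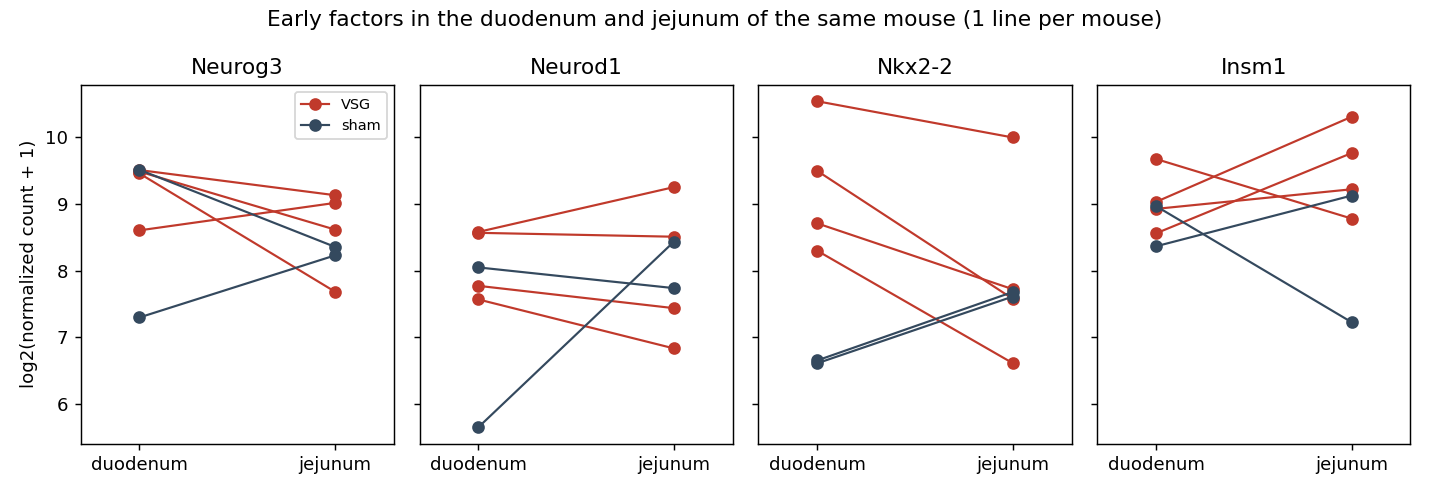
The 4 early factors in the duodenum and jejunum of each mouse, as log2(normalized count + 1), 1 line per mouse (sham dark, VSG red). For Nkx2-2 the 4 VSG lines slope down (-1.92 to -0.54) and both sham lines slope up (1.00 and 1.03). For the other 3 genes the slopes of VSG and sham mice overlap. The absolute slope depends on the separate scaling of the 2 tables.

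Other regulators of the EEC and secretory fates, 15 genes listed alongside, had 8 of 13 tested genes fitted higher in the duodenum, against 50.7% of all genes, with a median log2 fold change of 0.33 and 0 called. Sox4, an SRY-box factor that promotes EEC and tuft fates, had 7918, 5806, 5975 and 5895 normalized counts after VSG against 4439 and 4911, without overlap (log2 fold change 0.44, limma adjusted p = 0.846). Tox3 had a log2 fold change of 0.42 and Foxa1, a forkhead factor of the EEC lineage, 0.38. Sox4 and Foxa1 were the 2 of 13 with every VSG library above both sham libraries, against 6.44% of all genes. In the jejunum 13 of 14 were fitted higher (median 1.47), with 0 called. There Atoh1, the bHLH factor of all secretory cells, had 1512, 1556, 1677 and 529 after VSG against 450.1 and 594, with VSG4 between the sham libraries. Sham1 of the jejunum was listed at 0 for 7 of the 14, so part of this count lay with 1 library. In the ileum 8 of 10 were fitted higher, against 57% of all genes, with 6 of the 10 listed at 0 in sham1 and 4 in sham2, and 0 were called.

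Taken as a set, the products of differentiated EECs were nearly level in the duodenum, with exceptions in both directions. Of 19 hormone and granule genes tested in the duodenum, 12 were fitted higher, with a median log2 fold change of 0.07 and 0 called. Gcg, the proglucagon gene, was the 1 with every VSG library above both sham libraries (log2 fold change 0.69, limma adjusted p = 0.875). It had 810, 754, 968 and 725 normalized counts after VSG against 556 and 451. Slc18a1 was the 1 with every VSG library below them (log2 fold change -2.80). Over all genes these shares were 6.44% and 8.01%. Chga had 2769, 3419, 2929 and 3458 normalized counts after VSG and 2827 and 2812 after sham surgery, and Chgb, a second granule protein, 9691 to 12141 against 10515 and 9607. Gip, the hormone of K cells, differed by 0.21 and Ddc, an enzyme of serotonin synthesis, by -0.62. In the jejunum 10 of 20 were fitted higher (median 0.11), and Chga was at 270.3 in sham1 against 1215 to 4544 in the other libraries. Every jejunal VSG library lay above both sham libraries for Pyy, Scg2 and Scg5 and below them for Ddc. Over all genes these shares were 6.59% and 6.21%. None of the 20 was called, and in the sham libraries Pyy was at 0 and 9.68 and Scg5 at 0 in both. In the ileum 17 of 20 were fitted higher, against 57% of all genes, but 9 of the 20 were listed at 0 in sham1 and 5 in sham2. The highest ileal level was that of Gcg, with 1863 and 3276 after VSG and 2348 and 1186 after sham surgery.

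Markers of other cells were also compared between VSG and sham libraries, with 0 called in any list. Of all genes, 50.7% were fitted higher in the duodenum and 55% in the jejunum. An unadjusted limma p under 0.05 in the higher direction was found for 2.79% of duodenal genes. In the duodenum 8 of 8 tuft cell markers were fitted higher after VSG, 7 with an unadjusted p under 0.05 and a summed level of 20077 to 39334 against 6319 to 14702, and 10 of 10 enterocyte markers lower. Goblet cell markers were fitted higher in 8 of 8. Of 7 immune markers, the 4 tested were fitted higher in the duodenum, with a sum of 20232 to 57395 against 1851 to 30283. Cd74 made up nearly all of that sum, with a mean of 31566.5 normalized counts where Ptprc, the next, had 343. Which cells held Cd74 was not tested. CD45+ cells had been sorted out, yet transcripts of Ptprc, the gene of CD45, were listed in every duodenal library. Ptprc had 276, 114, 1534 and 87.01 normalized counts after VSG against 22.02 and 28.1 after sham surgery (limma adjusted p = 0.732). It was the 1 of the 4 tested immune markers with every VSG library above both sham libraries, against 6.44% of all genes. Which cells held Ptprc was not tested either. Pancreatic markers, those detected in the duodenum all of exocrine cells, summed to 1482 in VSG2 and 8023 in VSG3 and were listed at 0 in the other 4 duodenal libraries. VSG2 and VSG3 were also the libraries with the highest duodenal Nkx2-2 (1482 and 719) and Neurod1 (378 and 381), and VSG3 the one that listed Etv1. Fev was highest in VSG3 (346) and Lmx1a in VSG2 (146). The other factors were highest elsewhere, Isl1 (388) and Rfx6 (838) in VSG1, Insm1 (813) in VSG4 and Neurog3 (727) in sham1. Islet cells also express Neurod1, Nkx2-2 and Isl1, and of their hormone genes in the list Ins1 and Ins2 were listed at 0 in every library, while Iapp was listed in 2 jejunal libraries (VSG2, 35.8, and sham2, 27.7). The 6 neural and glial markers summed to 154 to 502 after VSG and 266 to 298 after sham surgery, overlapping. Also in the duodenum, 10 of 13 stem cell, 5 of 8 proliferation and 6 of 7 Paneth cell markers were fitted higher. The median log2 fold change of the proliferation markers was 0.04. Fitted higher too were 1 of 7 stromal, 1 of 5 stomach and 2 of 2 ileal enterocyte markers. Those 2 were low there, with Fabp6 listed only in VSG4 (85.1) and Slc10a2 at a mean of 21.4 normalized counts. In the jejunum 8 of 8 tuft, 8 of 8 goblet and 13 of 13 stem cell markers were fitted higher and 10 of 10 enterocyte markers lower. Jejunal sham1 stood apart there, with a stem cell sum of 19616 against 55786 to 73854 in the other libraries and an enterocyte sum of 2179015 against 518341 to 936188, and it is the library on which Insm1 and the count of other regulators in the jejunum leaned. The part of the tuft, goblet, stem cell, enterocyte, pancreatic and immune markers in the factor values was not tested.

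Among themselves the factors had no single pattern. Across 16 libraries, with each gene centred within its segment, Pearson's r with Neurog3 was 0.85 for Nkx2-2 and 0.85 for Isl1, and 0.06 for Neurod1, 0.02 for Insm1 and -0.15 for Fev. The high values shared the ileal zeros, since over the 12 duodenal and jejunal libraries r with Neurog3 was 0.28 for Nkx2-2, -0.01 for Isl1, 0.69 for Neurod1 and 0.53 for Insm1. Of 10707 genes with a mean above 50 in each segment, those most like the mean of the 9 members over 16 libraries were Creld1 (r = 0.91), Rraga (0.88), Map3k15 (0.87), Gm20430, Zwilch, Slc19a2, Haus8, Gm4617, Arsk and Ctif. Most like Neurog3 were Tnfaip8l1 (r = 0.97), 3110062M04Rik, Lrfn4, Mex3d and L3mbtl3. Over the 12 libraries Rraga remained among the 10 nearest to the mean (r = 0.92), and the 5 nearest to Neurog3 were others, Scnn1a (r = 0.92), Arhgef40, Fam21, Rassf6 and the tuft cell marker Dclk1 (r = 0.86). The libraries come from 7 mice and share their zeros, so these values describe the samples and carry no test.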

How the data were processed

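RNA-Seq of sorted GFP+ cells was used as 16 libraries, each 1 segment of 1 mouse, grouped by the labels. The sort left out CD45+, CD31+, annexin V+ and dead cells. Libraries with a low mapping rate, excluded by the authors, are not analysed here. STAR 2.5.3a (genome mm10) and Salmon 0.6.0 were used upstream, and the authors deposited signal values, counts normalized with DESeq2 within each segment. Of the values above 0, 37.8% to 49.0% per library lay within 0.01 of a whole multiple of 1 read, so no count model was run. Values of Neurog3, Neurod1, Insm1 and Lmx1a were whole reads in every library that listed them. Among the libraries that listed the gene, Nkx2-2 was whole in 1 of 13, Isl1 in 3 of 13 and Rfx6 in 0 of 13. Fev was whole in 1 of 10 and Etv1 in 3 of 7. Implied reads are a value divided by the worth of 1 read. The authors' tables of their own comparisons (fold changes and p-values) were not used.

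Each segment was tested with limma 3.58.1 (R 4.3.3, variance trend) on log2(normalized count + 1), a scale that understates the change of low genes, over genes with a mean above 10, with Benjamini-Hochberg adjustment over all of them. The same test was run on each mouse's duodenal and jejunal mean and difference. Permutation tests were exact and two-sided (15 splits of 4 against 2, 6 of 2 against 2). Intervals are limma's 95%. The steps were tested on simulated data. Alternatives were other pseudocounts, filters, scalings, thresholds, a replicate block and leaving out libraries.

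Members, lists and named genes were chosen with earlier results of these data known. Named were all members and the genes most like them. The rule for the lists was to name the called genes, or else the 3 most abundant. It was followed only in part, and several lists are given by counts or sums alone. Gcg, Chga and Atoh1, outside that rule, were named after their values were seen. So were Dll4, Slc18a1, Scg2, Scg5, Pyy, Fabp6, Lgr5, Cd74, Ins1, Ins2 and Iapp. In all, 15 lists were used. Of the listed identifiers, 48058 matched GENCODE M21; promoter windows are from RefSeq. Python 3.11.15 with pandas 2.3.3, numpy 2.4.6, scipy 1.17.1 and matplotlib 3.10.9 made the tables and figures.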

Additional observations from a re-analysis of the deposited data

Results flagged for a closer look

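In groups of 4 libraries, Dixon's ratio marked a library far from the others for 3 of the 18 gene and group combinations. The usual rate of about 1 in 20 assumes normal values, so it cannot be set against groups with values listed at 0. Duodenal Neurog3 in VSG2 was at 387 normalized counts, against 700.3 to 725 in the other VSG libraries (ratio 0.94). Duodenal Etv1 in VSG3 was at 101, with the other VSG libraries tied at 0, which alone fixes the ratio at 1. Jejunal Rfx6 in VSG1 was listed at 0, against 233 to 395 in the other VSG libraries (ratio 0.91), in the library with 196951 normalized counts of Fabp6. The effect of VSG on Nkx2-2 differed between jejunum and duodenum by -2.30 on the log2 scale by the limma test of the difference (unadjusted p = 0.00605), in 4 of 4 VSG mice against both sham mice, and it failed the adjustment over all genes (adjusted p = 0.985).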

How the results depend on the processing

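No member was called in the duodenum under any alternative. Nkx2-2 kept its direction there under each, with log2 fold changes of 2.20 (without VSG2) to 2.95 (without VSG1) when libraries were left out. Genes called in the duodenum (4 as reported) numbered 0 with a pseudocount of 0.5, 0 with no filter, 0 with a mean above 50, 0 with equal totals, 0 with adjusted p under 0.05, 10 with a pseudocount of 10, 43 without the variance trend, and 0 to 259 (without sham1) leaving out libraries. In the jejunum (2 as reported) they numbered 61 without trend, 1 with adjusted p under 0.05, 48 without both VSG1 and sham1 (an alternative chosen after seeing the data, as was leaving out libraries or Nkx2-2 from the early and late means and Nkx2-2 from the sums), and 1 to 2710 (without sham2). In the ileum (0 as reported) they numbered 3 with a pseudocount of 10, 463 without trend, and 0 to 631 (without VSG5). For the mean of both segments (3 as reported) they numbered 29 with a pseudocount of 10, 42 with quantile normalization, and 0 to 2091 (without sham2), and for the difference of segments (0 as reported) 0 to 812 (without sham2). A fit that leaves 1 library in a group assumes it varies like the other group.

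Members called ran from 0 to 1 in the jejunum (Insm1, without sham2), 0 to 3 in the ileum (Neurog3, Nkx2-2 and Rfx6, without VSG5, with both sham libraries at 0) and 0 to 1 for the difference (Fev, 7.28 on the log2 scale without sham2). Without trend 1 ileal member, Rfx6, was called. Leaving out libraries, the median of the members ran from 0.077 to 0.92 in the duodenum. The number of members fitted higher ran from 0 to 1 in the ileum, counted over the 2 with both groups above 0. For the difference it ran from 1 to 6. With Rfx6 as early, the ileal early minus late difference was 2.39 in place of -0.12, and it ran from -1.78 to 1.54 leaving out libraries.

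The replicate block used the number in the labels, which VSG and sham mice share without being the same animals, and same-numbered deviations correlated at only -0.07 to 0.05 across genes. With the block, 0 duodenal and 0 jejunal genes were called, and duodenal Nkx2-2 had a log2 fold change of 2.78 (limma adjusted p = 0.801). Jejunal Etv1 reversed, to 0.056. Other reversals among the members were jejunal Neurod1 with equal totals (0.15), jejunal Isl1 with quantile normalization (-0.13) and Fev in the mean of segments with quantile normalization (-0.25). Without both VSG1 and sham1, jejunal Isl1 (-0.31), Fev (-0.07) and Etv1 (0.39) reversed.

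Leaving out libraries turned the sign of some member log2 fold changes. In the duodenum these ranged from -0.25 to 1.96 for Neurog3, -2.11 to 0.70 for Fev and -0.13 to 0.37 for Lmx1a. In the jejunum they ranged from -0.49 to 0.31 for Neurod1, -0.34 to 0.78 for Nkx2-2, -0.47 to 0.85 for Isl1, -2.53 to 0.35 for Rfx6, -1.94 to 5.60 for Fev and -4.30 to 0.46 for Etv1, and in the ileum from -1.53 to 7.01 for Neurod1. For the mean of segments they ranged from -0.20 to 0.71 for Isl1, -0.90 to 0.36 for Rfx6, -1.32 to 2.20 for Fev and -1.32 to 1.06 for Etv1. For the difference of segments they ranged from -1.58 to 0.50 for Neurog3, -2.89 to 0.20 for Neurod1, -0.29 to 2.21 for Insm1, -0.62 to 0.28 for Isl1 and -1.22 to 7.28 for Fev.

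The cause of these changes was not tested beyond the fewer libraries or genes in each fit. With 2 sham libraries, 4-against-2 permutation tests cannot pass 0.05.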

Other observations

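Notch signalling holds progenitors back from the secretory fates that Neurog3 opens. Of its 10 ligands, receptors and targets, the fit was higher after VSG for 5 of 10 duodenal (median log2 fold change 0.01), 5 of 9 jejunal and 8 of 8 ileal genes tested, where 50.7%, 55% and 57% of all genes were, with 0 called in any segment. Each ileal sham library was listed at 0 for 3 of those 8 genes. Notch1, the most abundant of the list in the duodenum, had 1005, 32873.5, 2924 and 1360 normalized counts after VSG against 3191 and 906, which overlapped. Hes1, the Notch target that represses Neurog3 and Atoh1, was at 5931, 5511, 5980 and 5247 in the duodenum after VSG and at 3804 and 5800 after sham surgery, which overlapped. Dll1, a ligand of secretory progenitors, also overlapped there (log2 fold change 0.39). Dll4, a second ligand, chosen after its values were seen, was above both sham libraries in every duodenal and jejunal VSG library. It had 1623, 1119, 1888 and 1622 against 876 and 733 in the duodenum (log2 fold change 0.94, limma adjusted p = 0.666). In the jejunum it had 749, 2746, 837 and 1038 against 225 and 600.4 (log2 fold change 1.65, limma adjusted p = 0.760). Of all genes, 6.44% in the duodenum and 6.59% in the jejunum had every VSG library above both sham libraries.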
